A study of Mus musculus with 8 samples.

Results

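Carbonic anhydrases are enzymes that catalyze the reversible hydration of CO2 to bicarbonate and a proton. The family is sorted by where the protein sits: in the cytosol (CA2, CA3, CA13), in mitochondria (CA5B), on the cell surface through a lipid anchor (CA4), or in the membrane through a single transmembrane segment with the catalytic domain outside (CA9, CA14). CA8 has lost catalysis and binds the inositol trisphosphate receptor. In fat and muscle, CA3 is abundant, and CA14 is known from the muscle sarcolemma and sarcoplasmic reticulum. The 8 genes *Car2*, *Car3*, *Car4*, *Car5b*, *Car8*, *Car9*, *Car13* and *Car14*, out of 37074 gene names on the array, were followed through every probe that carries their name. The set was chosen by the measured difference of a *Car14* probe, among the most reduced in Pg mice on these same arrays, so that the differences of its members between the groups are given as descriptions without a p-value.

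The RNA came from tissue labelled as brown adipose tissue of male C57BL/6J mice aged 12 weeks, collected 18 h after an intravenous injection of 100 μL. The 4 Co mice received saline, and the 4 Pg mice received sonicated *P. gingivalis* in saline, at a dose that the labels print as 108 CFU with the exponent written on the line (100000000 CFU). RNA of each mouse was read on its own one-color Agilent array. Values are log2 signals after background subtraction and quantile normalization, so that a step of 1 is a doubling, and the signals of different probes cannot be set against each other. In tissue labelled as brown fat, *Cidea* lay between 13.16 and 13.52 on all 8 arrays, whereas *Ucp1*, the uncoupling protein of brown adipocytes, was well above background on none of them. The skeletal muscle genes *Acta1* (18.41 to 18.57) and *Ckm* (16.77 to 17.02) were well above background on all 8. Lower RNA of a gene per cell and fewer cells that express it cannot be told apart in such samples. The number of probes well above background was 34753 to 35798 per Co array and 31099 to 34032 per Pg array. The arrays shared 1 slide, Co in row 1 and Pg in row 2, so that group and position cannot be told apart.

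The 8 genes had 14 probes, each 60 bases long and spotted once, and *Car3*, *Car8*, *Car9* and *Car14* had several. None shared an exact run of 20 bases on the same strand with a probe of another gene name. Transcripts beyond the probe sequences were not searched, so that this does not show that a probe is specific. By the mm9 positions on the array, 4 genes of the family lay in a row on chromosome 3: *Car13* (probe at chr3:14662332-14662391), *Car1*, which is not among the 8, *Car3* (chr3:14865173-14871840 from the first to the last probe) and *Car2* (chr3:14900206-14900265). *Car14* lay elsewhere on chromosome 3, *Car8* and *Car9* on chromosome 4, *Car4* on chromosome 11 and *Car5b* on chromosome X. No exon annotation of mm9 was used here, so that exon, intron or UTR is not stated for a probe.

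The results turn on 3 probes that carry the name of a gene but list no RefSeq accession, A_55_P2595387 of *Car14* and a pair of *Car3*. Their sequences are shown with that of A_55_P2727429, which lists both the RefSeq transcript of *Car14* and the Ensembl transcript of A_55_P2595387, and in which capitals mark the only ATG.
Car14 A_55_P2727429 (NM_011797 and ENSMUST00000149202, chr3:95708252-95708311, minus strand): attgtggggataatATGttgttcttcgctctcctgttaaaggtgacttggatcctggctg
Car14 A_55_P2595387 (ENSMUST00000149202, chr3:95705496-95705555, minus strand): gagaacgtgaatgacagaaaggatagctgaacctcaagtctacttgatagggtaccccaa
Car3 A_55_P2936152 (ENSMUST00000195575, chr3:14865173-14865232, plus strand): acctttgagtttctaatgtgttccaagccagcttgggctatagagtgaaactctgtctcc
Car3 A_55_P2934767 (ENSMUST00000195575, chr3:14865478-14865537, plus strand): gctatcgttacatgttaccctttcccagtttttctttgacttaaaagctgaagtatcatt

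Of the 14 probes, 13 (of 7 genes) cleared the background on 4 or more arrays and entered the limma fit of 33815 probes, and the probe of *Car5b* did not. A probe was called when the FDR q was under 0.1 and the fold change above 1.5. This held for 1 of the 13 probes, a *Car14* probe lower in Pg mice, and for 1.59% of all probes tested (537 probes, 109 higher and 428 lower). The direction of these calls depended on the processing, with 69 higher and 29 lower under normexp (limma's background correction of the mean signal, offset 50) and 134 higher and 135 lower when arrays were scaled to the 75th percentile. Without the fold change limit, 2 of the 13 had a q under 0.1, both of *Car14*, and 3 had an unadjusted p under 0.05. Of all probes tested, 7.66% had such a q and 22.7% such a p, which are also the shares to set beside the counts of the gene lists given later. For 2 of the 13 probes the ranges of the groups were apart, as they were for 15.8% of all probes tested. Signals were higher in Pg mice for 6 probes and lower for 7, with a median difference (Pg minus Co) of −0.08 on the log2 scale against −0.04 for all probes tested. Because *Car14* chose the set, nothing is read from these counts. The number of called probes over the whole array rested strongly on 1 array, with 3 left without Co replicate 3.

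**Figure D1:**
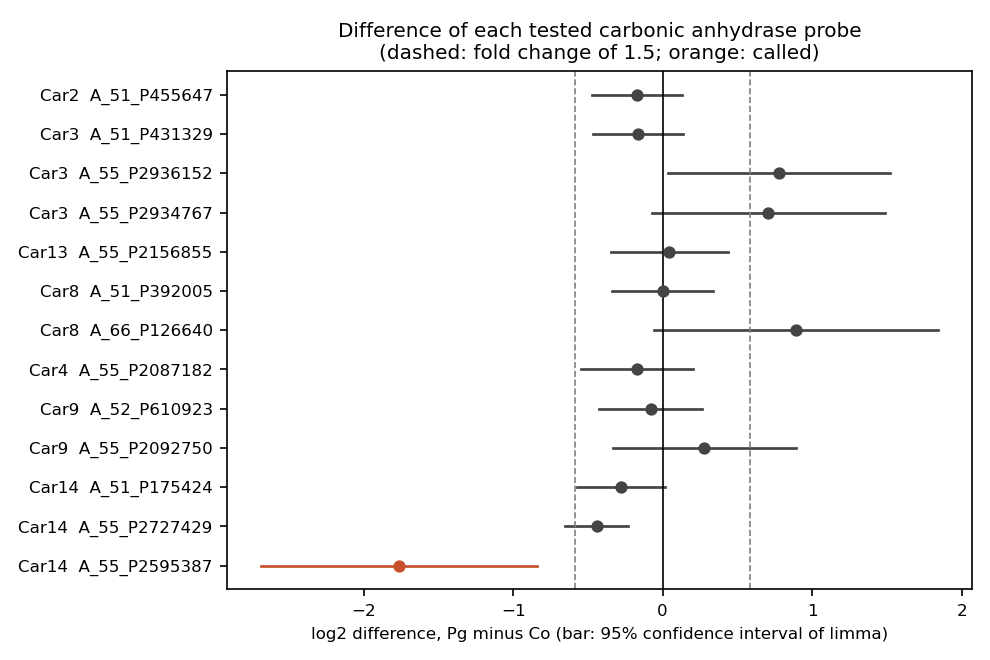
Difference between Pg and Co mice on the log2 scale for the 13 tested carbonic anhydrase probes (points), with the 95% confidence interval from limma (bars) and dashed lines at a fold change of 1.5. Only the *Car14* probe A_55_P2595387, at −1.76, was called, and the 2 *Car3* probes of ENSMUST00000195575 and a *Car8* probe lie on the other side of 0, with wide intervals. The set was chosen by the difference on A_55_P2595387, so that its interval is a description and not a test.

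*Car14*, the membrane-bound enzyme with an extracellular catalytic domain, was lower in Pg mice on each of its 3 probes. With the background-subtracted signal the amounts lay far apart, at −1.76, −0.44 and −0.28, and with normexp much closer, at −0.55, −0.41 and −0.23. On A_55_P2595387, which lists ENSMUST00000149202 alone, the signals of the Co arrays were 6.35, 5.63, 5.54 and 5.76, and those of the Pg arrays 3.39, 3.31, 4.95 and 4.59. Every Pg array lay below every Co array, with Pg replicates 1 and 2 farthest down. The fitted difference was −1.76 (standard error 0.40), which is a description because the set was chosen by this probe. All 4 Co arrays but only 2 Pg arrays measured this probe well above background, and Pg replicates 1 and 2 lay under the lowest signal that was well above background on their arrays (4.62 and 4.50). The size of −1.76 thus rests in part on 2 signals that were not well above background.

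The other 2 probes of *Car14* list the RefSeq transcript NM_011797 first and were well above background on all 8 arrays. On A_55_P2727429, shown above and also assigned to ENSMUST00000149202, the Co arrays were at 9.94, 9.99, 9.66 and 9.92 and the Pg arrays at 9.39, 9.35, 9.59 and 9.42. The groups did not overlap here either, with Co replicate 3 and Pg replicate 3 nearest to each other, and the difference of −0.44 (standard error 0.09) was below the fold change limit. On A_51_P175424 (chr3:95701859-95701918, the farthest downstream of the 3) the Co arrays were at 11.89, 11.81, 11.37 and 11.84 and the Pg arrays at 11.28, 11.43, 11.62 and 11.46. The groups overlapped, since Co replicate 3 lay below 3 of the Pg arrays, and the difference was −0.28 (standard error 0.13).

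The size of the difference on A_55_P2595387 depended on the treatment of the background. It was −0.55 (standard error 0.11) with normexp, beside −0.41 (standard error 0.08) for A_55_P2727429. When the median signal was taken and no background subtracted, the 3 probes were at −0.60, −0.38 and −0.25. The probe was called in 5 of 16 other ways to process the arrays in which it was tested, and among the 8 fits that leave out 1 array only without Pg replicate 3. The difference on A_55_P2727429 stayed between −0.51 and −0.38, and that on A_51_P175424 between −0.40 and −0.22, without a call.

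**Figure D2:**
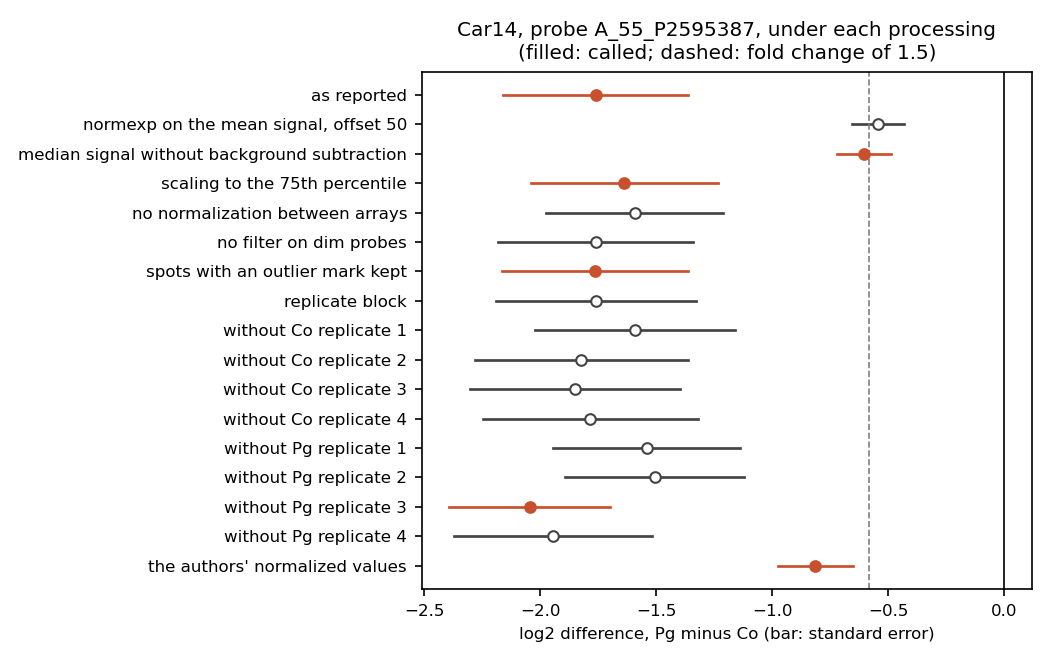
Log2 difference between Pg and Co mice for the *Car14* probe A_55_P2595387 under each way to process the arrays (points, with the standard error as bars), filled where the probe was called, with a dashed line at a fold change of 1.5. Every value is below 0, from −2.05 without Pg replicate 3 to −0.55 with normexp, and most are not called.

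Within an array, a factor common to all probes cancels in the distance between 2 probes of a gene. A_55_P2595387 of *Car14* minus A_55_P2727429 was −4.06 ± 0.33 (SD, n = 4) log2 units on the Co arrays and −5.38 ± 0.75 (SD, n = 4) on the Pg arrays. Both probes are assigned to ENSMUST00000149202, and on Pg replicates 1 and 2, which have the greatest distances, A_55_P2595387 was not well above background. With normexp A_55_P2595387 minus A_55_P2727429 was −3.16 in Co and −3.29 in Pg mice, and the groups overlapped. The same comparison with A_51_P175424 gave −5.91 ± 0.29 (SD, n = 4) and −7.39 ± 0.72 (SD, n = 4), and −4.88 and −5.19 with normexp, without overlap in either. These distances contain the values by which the set was chosen and are a description. The distance between the 2 probes of NM_011797, 6334 bases apart, was 1.85 ± 0.11 (SD, n = 4) on the Co arrays and 2.01 ± 0.08 (SD, n = 4) on the Pg arrays, and the groups overlapped.

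**Figure D3:**
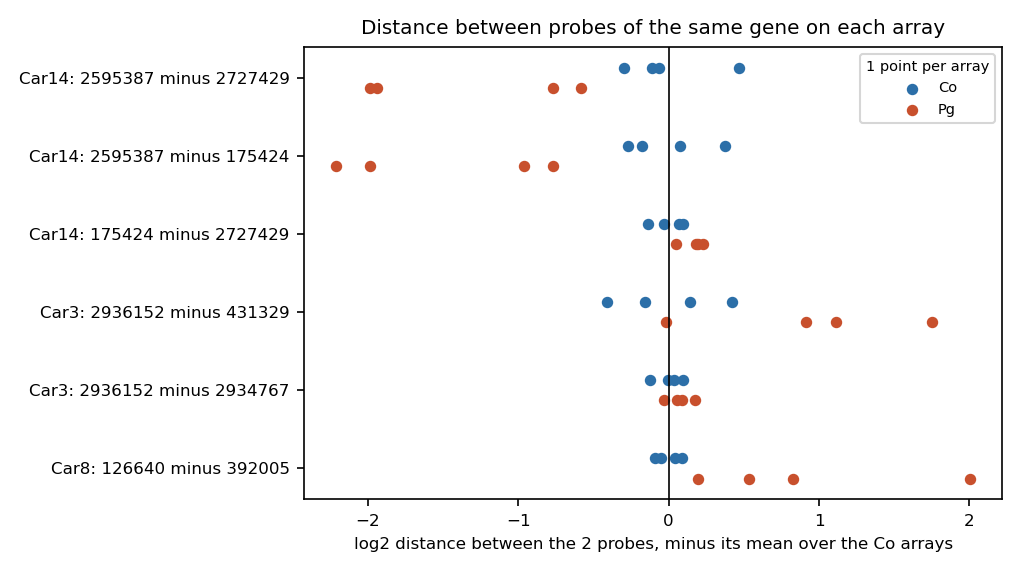
Log2 distance between 2 probes of the same gene on each array (1 point per array), minus its mean over the Co arrays, with the last digits of the probe names on the vertical axis. The Pg arrays lie to the left of the Co arrays for both pairs with the *Car14* probe A_55_P2595387 and to the right for the *Car8* pair, with the background-subtracted signal, while 1 Pg array stays among the Co arrays for the *Car3* pair with A_51_P431329 and 3 do for the other *Car3* pair.

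By the Pearson correlation of group-centred values over the 8 arrays, the genes most like the *Car14* probe A_51_P175424 among 29146 probes above background on every array were *Hemgn* (r = 0.99), *Afg3l1* (r = 0.97), the transcript ENSMUST00000112529 (r = 0.97) and 2 probes named only by a position (r = 0.98 and 0.97). With 8 arrays of 1 slide and so many probes, these are given as a description of these arrays.

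Among the cytosolic enzymes, *Car3*, which is abundant in fat and muscle, gave opposite signs on its probes. On the probe of the RefSeq transcript NM_007606 (A_51_P431329) the Co arrays were at 17.45, 17.00, 16.96 and 17.13 and the Pg arrays at 16.83, 17.21, 16.99 and 16.85. The groups overlapped, and the difference was −0.16 (standard error 0.13), with no saturated spot. On A_55_P2936152, a probe of ENSMUST00000195575 that lies 6549 bases upstream, the Co arrays were at 10.74, 11.12, 10.50 and 10.97 and the Pg arrays at 12.28, 11.82, 10.68 and 11.66. Pg replicates 1, 2 and 4 lay above every Co array, and Pg replicate 3 lay among them. The difference was 0.78 (standard error 0.32).

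The other probe of ENSMUST00000195575, A_55_P2934767, lies 246 bases from the first. It was at 10.21, 10.65, 10.19 and 10.54 on the Co arrays and 11.78, 11.29, 10.07 and 11.26 on the Pg arrays, a difference of 0.71 (standard error 0.34). Again Pg replicate 3 alone among the Pg arrays was not above the Co arrays, in this case below all 4 of them. The distance between these 2 probes was 0.44 ± 0.09 (SD, n = 4) on the Co arrays and 0.51 ± 0.09 (SD, n = 4) on the Pg arrays, so that they moved together from array to array. Their distance to the RefSeq probe was −6.30 ± 0.36 (SD, n = 4) among Co arrays and −5.36 ± 0.73 (SD, n = 4) among Pg arrays for A_55_P2936152, with overlap. Without Pg replicate 3, both probes were called, at 1.09 and 1.05, and with all 8 arrays neither was.

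*Car2*, the fast and widely expressed cytosolic enzyme, was at 11.01, 10.91, 11.29 and 11.43 on the Co arrays and 11.09, 10.99, 11.09 and 10.78 on the Pg arrays. The groups overlapped, and the difference was −0.17 (standard error 0.13, 95% confidence interval −0.47 to 0.13). *Car13*, another cytosolic enzyme, was dim but well above background on all 8 arrays, at 4.67, 5.13, 5.10 and 4.77 in Co mice and 5.21, 4.73, 5.22 and 4.69 in Pg mice. Its difference of 0.04 (standard error 0.17) did not keep its sign in 7 of 17 other ways to process the arrays.

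**Figure D4:**
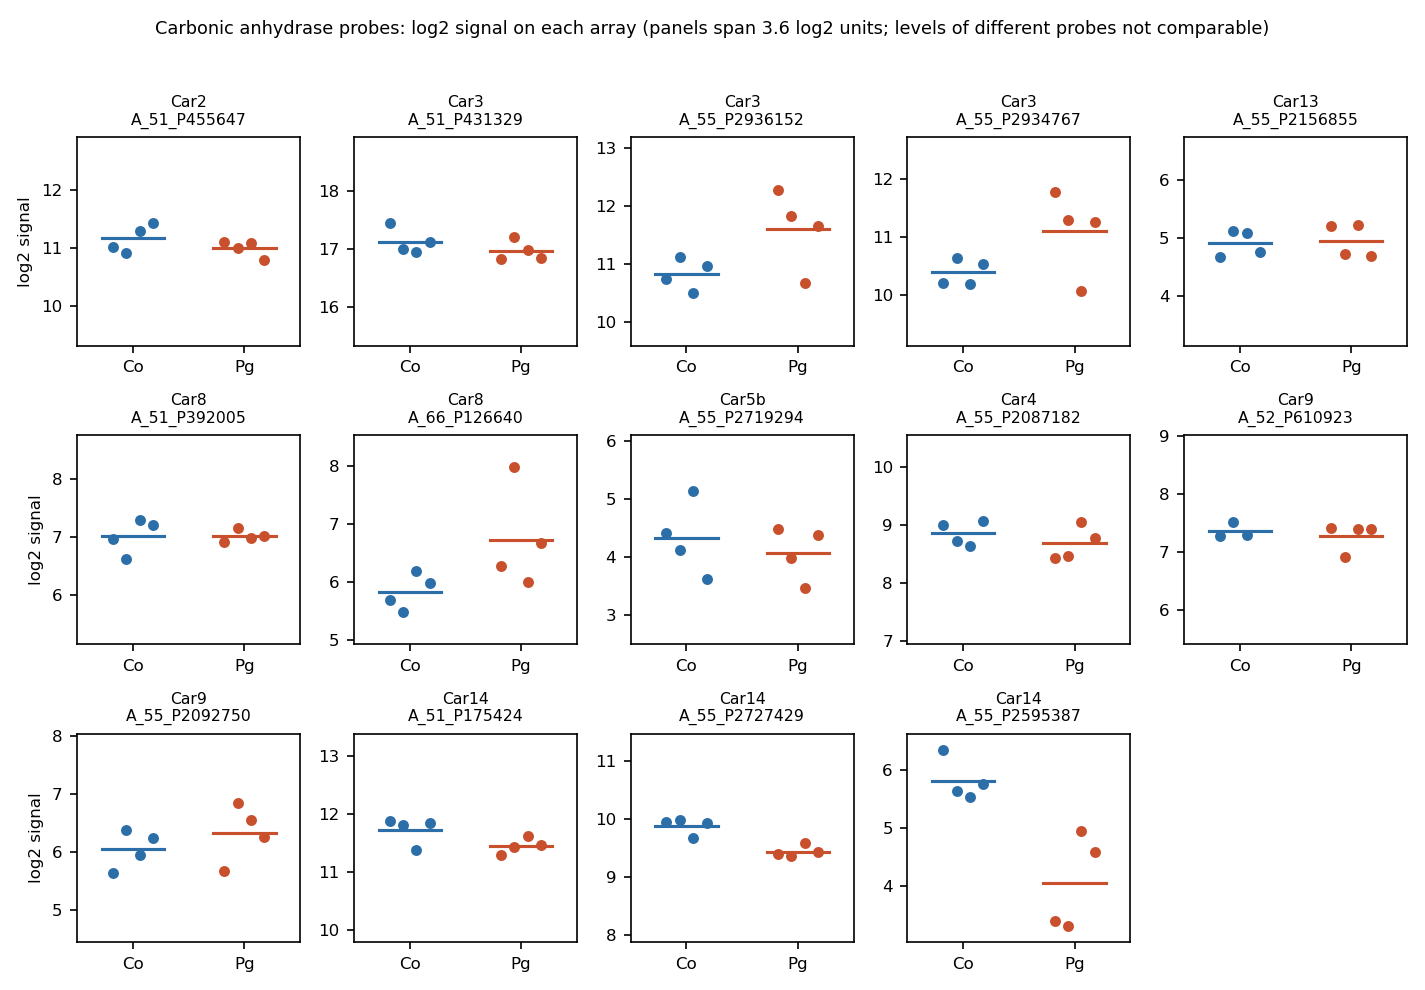
Log2 signal of each of the 14 carbonic anhydrase probes on the 4 Co arrays and the 4 Pg arrays (points) with the group means (lines), on axes of equal length that are placed separately for each probe. The groups are apart only for the *Car14* probes A_55_P2727429 and A_55_P2595387, and *Car9* A_52_P610923 has 3 Co arrays because 1 spot was left out.

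*Car8*, the noncatalytic partner of the inositol trisphosphate receptor, had 2 probes of NM_007592 that differed from each other. A_51_P392005 was at 6.96, 6.62, 7.29 and 7.21 on the Co arrays and 6.92, 7.16, 6.98 and 7.02 on the Pg arrays, with a difference of 0.00 (standard error 0.15). A_66_P126640, which lies 1829 bases away, was at 5.68, 5.47, 6.19 and 5.97 on the Co arrays and 6.26, 7.97, 5.99 and 6.66 on the Pg arrays. Pg replicate 2 stood highest, Pg replicate 3 lay among the Co arrays, and the difference was 0.89 (standard error 0.41), which fell to 0.48 without Pg replicate 2. The distance between the 2 probes was −1.19 ± 0.08 (SD, n = 4) among Co arrays and −0.30 ± 0.79 (SD, n = 4) among Pg arrays, without overlap. With normexp it was −0.75 and −0.25, and the groups overlapped, whereas with the median signal it was −0.89 and −0.36, without overlap.

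The surface enzyme *Car4*, found on capillary endothelium and in muscle membranes, was at 8.99, 8.71, 8.64 and 9.06 on the Co arrays and 8.42, 8.47, 9.04 and 8.78 on the Pg arrays. Pg replicates 1 and 2 lay below the Co arrays and the other two among them, and the difference was −0.17 (standard error 0.16). The only probe of *Car5b*, one of the 2 mitochondrial enzymes, was well above background on 2 Co arrays and 1 Pg array. Its signals were 4.41, 4.11, 5.13 and 3.61 in Co mice and 4.48, 3.97, 3.45 and 4.37 in Pg mice, and no difference was fitted.

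*Car9*, a target of hypoxia-inducible factor, had 1 spot that decided its value. On A_52_P610923 the scanner software marked the spot of Co replicate 4 as non-uniform. Its processed intensity was 13500, against 129 to 186 on the other 7 arrays, with a mean pixel signal of 14470 and a median of 8821. Without this spot, the Co arrays were at 7.28, 7.51 and 7.30 and the Pg arrays at 7.42, 6.92, 7.40 and 7.40, and the difference was −0.08 (standard error 0.14, 3 Co and 4 Pg arrays). With the spot it was −1.68. The second probe, A_55_P2092750, lies 436 bases away on the same transcript and was at 6.24 on Co replicate 4, within the other Co arrays (5.63, 6.37 and 5.95). Its Pg arrays were at 5.67, 6.84, 6.55 and 6.26, and the difference was 0.28 (standard error 0.26), between 0.11 without Pg replicate 2 and 0.50 without Pg replicate 1. In the authors' normalized table the 2 probes are 1 entry, whose value for Co replicate 4 is 9.89 and whose mean difference is −0.63.

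That table has 28067 entries, 1 for each accession, and 9 of them are of the 8 genes, with none for *Car5b*. Each of the 9 equals the mean over the probes that list its accession first (to 4 decimals) after normexp of the median signal (offset 16), and 4 of them join 2 probes. A_55_P2727429 and A_51_P175424 of *Car14* share the entry NM_011797, with a mean difference of −0.32, and A_55_P2595387 alone makes the entry ENSMUST00000149202, at −0.82. The probes of *Car8*, with differences of 0.00 and 0.89 here, share an entry at 0.31.

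The 8 other carbonic anhydrase names on the array had 13 probes, of which 4, of *Car1*, *Car7*, *Car11* and *Car15*, were tested. None was called in limma or had an unadjusted p under 0.05. The largest difference was that of *Car11*, a noncatalytic member, at −0.30 (adjusted p = 0.383 from limma), with Pg replicate 1 at 5.89 and the other Pg arrays between 6.54 and 6.62. *Car15*, a membrane-anchored enzyme, differed by 0.10 (adjusted p = 0.619 from limma). The cytosolic enzymes *Car1* and *Car7* differed by 0.03 (adjusted p = 0.922 from limma) and −0.08 (adjusted p = 0.517 from limma). The probes of *Car5a*, *Car6*, *Car10* and *Car12* were not well above background on enough arrays.

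Transporters carry bicarbonate, protons and lactate across the membrane on which the surface enzymes act. The list for this transport also holds *Bsg*, *Emb* and *Aqp1*. Of its 31 tested probes of 18 genes, 1 was called, lower in Pg mice (1.59% of all probes were called). A q under 0.1 held for 4, all lower, and an unadjusted p under 0.05 for 8. The called probe belongs to *Slc9a2*, a sodium-proton exchanger, and was tested only through the Co arrays, since no Pg array measured it well above background. The bound on its decrease in Pg mice was at least 1.13-fold, its call was lost under a stricter filter on dim probes and without such a filter, and the other probe of *Slc9a2* differed by 0.02 (adjusted p = 0.845 from limma). *Bsg*, the chaperone of the lactate transporters, had a difference of −0.30 (adjusted p = 0.0565 from limma), under the fold change limit. *Slc4a8*, a sodium-driven bicarbonate exchanger, had differences of −0.25 (adjusted p = 0.401 from limma), −0.56 (adjusted p = 0.112) and −0.34 (adjusted p = 0.647) on its 3 tested probes, and *Slc4a1*, the anion exchanger of red blood cells, one of −0.58 (adjusted p = 0.464).

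The 3 inositol trisphosphate receptors and the 3 ryanodine receptors had 15 tested probes of 5 genes, with 2 called and lower (1.59% of all probes were called). A q under 0.1 held for 3 of the 15 and an unadjusted p under 0.05 for 7. Signals were higher in Pg mice for 7 of these probes and lower for 8. On the brightest probe of each gene they were higher for 4 genes and lower for 1. Both called probes were of *Itpr2*, at −0.73 (adjusted p = 0.0751 from limma, well above background on 2 Pg arrays) and −0.62 (adjusted p = 0.0686), and the other 3 of its 5 tested probes differed by −0.45 (adjusted p = 0.392), 0.06 (adjusted p = 0.75) and 0.13 (adjusted p = 0.913). *Itpr3* had a difference of 0.26 (adjusted p = 0.068 from limma), under the fold change limit. *Ryr3* had differences of 0.34 (adjusted p = 0.558) and −0.03 (adjusted p = 0.97) on its 2 tested probes. The number of called probes in this list was 0 with normexp, with 75th percentile scaling, without a filter, with the authors' values and without any 1 array other than Pg replicate 3.

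Among the carboxylases that use bicarbonate as a substrate, 0 of 18 tested probes of 8 genes were called in limma, 3 had a q under 0.1, all lower, and 4 an unadjusted p under 0.05. The largest differences were those of *Mccc2*, a subunit of methylcrotonyl-CoA carboxylase. These were −0.38 (adjusted p = 0.0581 from limma) and, on a probe where Co replicate 1 stood apart, −0.41 (adjusted p = 0.635). Its brightest probe differed by −0.07. Of 12 hypoxia targets with 22 tested probes, 0 probes were called in limma, 2 had a q under 0.1 and 6 an unadjusted p under 0.05. *Adm*, the vasodilator peptide adrenomedullin, had a difference of −0.34 (adjusted p = 0.0596 from limma), and a probe of *Pdk1*, a kinase that restrains pyruvate oxidation, one of 0.34 (adjusted p = 0.79), with Pg replicate 3 at 10.40 and the other Pg arrays between 7.29 and 7.54. The other 4 probes of *Pdk1* differed by −0.22 to 0.04.

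Marker genes of the cell types that may hold these enzymes are given as the mean log2 signal over the genes of a list. For 10 adipocyte genes it lay between 10.93 and 11.66 on the Co arrays and 10.91 and 11.76 on the Pg arrays, with 0 of 15 probes called in limma and 2 at an unadjusted p under 0.05. For 10 brown adipocyte genes it lay between 10.48 and 10.57 and between 10.34 and 10.72, with 0 of 11 called and 3 at an unadjusted p under 0.05. *Dio2*, the deiodinase that activates thyroid hormone in brown fat, had the largest difference, 0.59 (adjusted p = 0.128 from limma), and *Ppargc1a* had differences of −0.37 (adjusted p = 0.425) and −0.24 (adjusted p = 0.597) on its 2 probes. For *Plin1* they were 0.35 (adjusted p = 0.637 from limma) and −0.32 (adjusted p = 0.75) on 2 tested probes, and for *Pparg* 0.23 (adjusted p = 0.158).

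The mean over 11 fast muscle genes was 16.56 to 17.22 in Co mice and 16.18 to 17.23 in Pg mice, with 0 of 18 probes called in limma and 6 at an unadjusted p under 0.05. *Myh4*, the myosin of the fastest fibers, ranged from 13.37 to 16.97 in Co mice and from 11.38 to 17.07 in Pg mice. *Atp2a1*, the calcium pump of fast fibers, had a difference of −0.44 (adjusted p = 0.0415 from limma), under the fold change limit, with Co arrays from 16.03 to 16.24 and Pg arrays from 15.65 to 15.79. The 8 slow muscle genes lay between 17.97 and 18.04 in Co mice and between 17.94 and 18.04 in Pg mice, with 0 of 13 probes called in limma and 3 at an unadjusted p under 0.05, and the 2 probes of *Myh7* differed by 0.08 and −0.44. *Atp2a2*, the calcium pump of slow fibers, had differences of −0.07 (adjusted p = 0.636 from limma), −0.36 (adjusted p = 0.182) and 0.08 (adjusted p = 0.582) on its 3 probes.

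The mean over 8 capillary endothelial genes was 12.07 to 12.23 in Co mice and 12.16 to 12.24 in Pg mice, with 0 of 8 probes called in limma and 2 at an unadjusted p under 0.05. *Kdr*, a receptor for VEGF, had a difference of 0.57 (adjusted p = 0.0587 from limma), under the fold change limit, and *Pecam1* differed by −0.20 (adjusted p = 0.156). The mean over 7 red blood cell genes ran from 10.74 to 11.38 on the Co arrays and from 9.59 to 11.68 on the Pg arrays, with 0 of 8 probes called in limma and 0 at an unadjusted p under 0.05. *Hbb-b1* differed by −0.81 (adjusted p = 0.353) and *Alas2* by −0.64 (adjusted p = 0.499). The groups overlapped in the mean of each of these lists. Tested probes lower in Pg mice were 7 of 8 for red blood cell, 15 of 18 for fast muscle and 10 of 13 for slow muscle genes. For adipocyte, brown adipocyte and capillary endothelial genes they were 4 of 15, 5 of 11 and 3 of 8. The median difference was −0.55 for the red blood cell probes, −0.09 for fast and −0.07 for slow muscle, against −0.04 for all probes tested. In the other lists of cell types it lay between 0.02 and 0.07. The part of these cell types, and of the lower number of probes above background on the Pg arrays, in the values of *Car14* was not tested.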

How the data were processed

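Total RNA was labelled with Cy3 and hybridized to Agilent 8 × 60 K arrays. The deposited scanner files, made with Agilent Feature Extraction 11.0.1.1 according to the submitters' processing notes, hold the processed intensity and the raw mean, median and background intensity of every spot. The authors also deposited a table of quantile-normalized log2 values. It also holds their fold changes and p-values, which were not used. From the 59305 spots that are not controls, those marked as population or non-uniformity outliers were left out (94 to 166 per array). Processed intensities were averaged per probe (56605 probes), quantile-normalized, raised to at least 1 and log2-transformed. Those that at least 4 arrays measured well above background entered limma 3.58.1 (R 4.3.3 and data.table, version 1.17.8, lmFit and eBayes, two-sided, Benjamini-Hochberg), with the threshold of the study's methods. The fit was also run on simulated data with known changes, whose outcome is not given here. The number of arrays limits the precision.

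Members were matched by the gene name on the array, and adding names through the RefSeq accession brought 0 more probes. Of the 11 lists, 1 gene (*Hbb-bs*) was matched by name to no probe and *Pc* was matched through its synonym. Further accessions that a probe lists after its first were not used for matching. The gene names came from the array, with symbols of GRCm38.p6 for 32994 probes. A bound was the mean of the brighter group over the lowest signal well above background on each dim array, or the dim probe itself where that was higher. Named were all member probes, the tested probes of other family members, and in each list the called genes and the 2 largest differences among probes above background on all 8 arrays. *Bsg*, *Itpr3*, *Acta1*, *Ckm* and *Cidea* were named for their q or as markers, the first 2 after their values were seen. The members and lists were chosen with earlier results of these data known. Alternatives were other background corrections, scalings and filters, outlier spots kept, a replicate block, the authors' values and leaving out each array.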

Additional observations from a re-analysis of the deposited data

Results flagged for a closer look

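Among 95 groups of 4 arrays (the tested member probes, the other tested carbonic anhydrases and the probes described in the lists, in Co or Pg mice), 6 held an array far from the other 3 by Dixon's test at the 95% level, where chance gives about 1 in 20. *Car14* A_51_P175424 was at 11.37 on Co replicate 3, with the other Co arrays between 11.81 and 11.89, and this array brought its groups to overlap. *Car9* A_52_P610923 was at 6.92 on Pg replicate 2, with the other Pg arrays between 7.40 and 7.42. *Car11* was at 5.89 on Pg replicate 1, with the other Pg arrays between 6.54 and 6.62. *Mccc2* A_55_P2042550 was at 7.52 on Co replicate 1 (others 5.21 to 5.56), *Ppargc1a* at 11.77 on Co replicate 4 (others 12.65 to 12.68) and *Pdk1* A_55_P2590813 at 10.40 on Pg replicate 3 (others 7.29 to 7.54). The spot of *Car9* that was left out would have stood at 13.75 on Co replicate 4, with the other Co arrays between 7.29 and 7.52.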

How the results depend on the processing

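The 13 member probes gave 211 values under the alternatives. Of these, 198 had the same sign as the value reported, 207 moved by less than 1 SD and 4 moved more: the *Car14* probe A_55_P2595387 with normexp (−0.55), with the raw median (−0.60) and the authors' normalized values (−0.82), and *Car9* with the marked spot kept (−1.68). The 13 changes of sign were of *Car13*, *Car9* A_52_P610923 and *Car8* A_51_P392005. The other filters on dim probes could not change a fitted difference, and the replicate block changed only that of *Car9* A_52_P610923. These counts therefore include values that could not move. The SD was that of the probe within the groups. By this rule *Car8* A_66_P126640, which ranged from 0.48 to 1.14, did not move.
The called *Car14* probe lost its call with normexp (−0.55), without normalization between arrays (−1.59), without the filter on dim probes (−1.76) and with the replicate block (−1.76), and lay between −2.05 and −1.51 with 1 array left out, called only without Pg replicate 3. It could not be tested where a probe had to be above background on all 8 arrays. Called member probes numbered 0 with normexp, without normalization, with this stricter filter, without a filter and with the replicate block, and 0 to 3 with 1 array left out (the 3 without Pg replicate 3).
Over all probes, the 537 called (109 higher, 428 lower) became 98 with normexp (69 higher, 29 lower), 111 from the median signal (77 and 34), 269 after scaling to the 75th percentile (134 and 135), 30 without normalization (21 and 9), 316 above background on all 8 arrays (109 and 207), 106 in the authors' values (60 and 46) and 3 to 691 with 1 array left out, the lowest without Co replicate 3. They were 363 without a filter and 0 with the replicate block. Replicate numbers did not pair the arrays (correlations of the deviations 0.07, −0.03, −0.07 and 0.20).
Called transporter probes (1) became 0 with normexp, the median signal, the 75th percentile, no normalization, either other filter, the replicate block and the authors' values, and 0 to 2 with 1 array left out. Called calcium channel probes (2) became 1 above background on all 8 arrays, 0 under the rest of these, and 0 to 2 with 1 array left out. Without Pg replicate 3, 1 brown adipocyte and 1 endothelial probe were called. Counts of the other lists stayed at 0. The distances between probes with normexp and with the median signal were added after seeing the data. With 1 array left out, differences that were not called ranged from −0.25 to −0.08 for *Car2*, −0.24 to −0.06 for *Car3* A_51_P431329 and −0.30 to −0.09 for *Car4*.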
